A study of Mus musculus with 24 samples.

Results

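The genes described here are 47 genes of DNA replication and S phase, chosen by symbol to cover origin licensing, the replicative helicase, origin firing, the sliding clamp, the polymerases, lagging-strand processing, nucleotide supply and copying of DNA methylation. All 47 were found among the 45706 gene IDs of the count table, and all 47 were among the 16573 genes that passed the filter on low counts. RNA of fibroblasts grown from mouse embryos at E13.5 (days of gestation) was sequenced in 24 libraries, 3 for each of 8 groups. The groups were Vhl Cre and Vhl GFP, Vhl/Rassf1a Cre and Vhl/Rassf1a GFP, Rassf1a Cre and Rassf1a GFP, and WT Cre and WT GFP. Vhl, Rassf1a and Vhl/Rassf1a name the gene or genes altered, WT is wild type, Cre libraries are labelled as knockouts (KO) and GFP libraries as controls. WT Cre therefore shows what Cre did in cells with no named alteration, and the GFP libraries of each altered genotype were set against WT GFP. Not stated in the labels are the way Cre and GFP entered the cells, the exons that Cre removes, the mouse strain, and whether the 3 libraries of a group stem from separate embryos or cultures. P-values therefore measure the spread between these libraries, which may be technical.

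Before S phase, the origin recognition complex, Cdc6 and Cdt1 load rings of the Mcm2 to Mcm7 helicase onto DNA, a step called licensing that geminin blocks once S phase has begun. The Dbf4-dependent kinase and cyclin-dependent kinases then recruit Cdc45 and the GINS complex, the helicase starts to unwind DNA, primase lays down primers, and the polymerases copy both strands on the sliding clamp PCNA. Most of these genes are transcribed in late G1 and S phase under E2F factors, which the retinoblastoma proteins hold in check. Their summed RNA can therefore vary with how many cells of a culture are cycling, a share that these counts do not give. The Vhl protein binds hypoxia-inducible factors and marks them for destruction by a ubiquitin ligase, and Rassf1a is an isoform of the tumour suppressor gene Rassf1.

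Library totals lay between 29934173 and 55849586 counts, and the least counted replication gene, Fen1, had a mean of 45.5 counts per library. The Vhl transcript averaged 2.57 ± 0.257 CPM (counts per 1000000 counts of the library) in Vhl Cre, against 26.7 ± 0.972 CPM in Vhl GFP, and 2.10 ± 0.523 CPM in Vhl/Rassf1a Cre, against 22.0 ± 1.59 CPM in Vhl/Rassf1a GFP (SD, n = 3 each). Counts of the whole Rassf1 gene averaged 26.6 ± 1.25 CPM in Rassf1a Cre and 27.9 ± 2.90 CPM in Rassf1a GFP (SD, n = 3 each), so they check no label, because the isoforms share most of their exons. In the genotypes with Vhl altered the Rassf1 count rose, to 43.8 ± 1.00 CPM in Vhl Cre, against 26.6 ± 2.49 CPM in Vhl GFP, and to 45.2 ± 2.11 CPM in Vhl/Rassf1a Cre, against 32.6 ± 3.95 CPM in Vhl/Rassf1a GFP (SD, n = 3 each; edgeR adjusted p = 9.51e-07 and 0.000281). The series' design text speaks of single kidney proximal tubule cells, whereas each sample label names embryonic fibroblasts. The 12 fibroblast markers together held 42010 to 63440 CPM per library, and the 8 proximal tubule markers 187.1 to 367.4 CPM. Of these 8, Aqp1 averaged 259.4 CPM, Lrp2 11.1 CPM and Cubn 7.87 CPM, and Slc34a1, Slc5a2, Slc22a6, Slc27a2 and Hnf4a averaged under 1 CPM. A pair of libraries stood apart from their groups, replicate 1 of Rassf1a GFP and replicate 2 of Vhl/Rassf1a GFP. Their deviations from the mean of the other libraries of the group followed gene GC content (correlations over genes of 0.547 and 0.615). These deviations correlated with each other at 0.496 over genes. In the groups without these libraries, the correlations with GC lay between -0.243 and 0.273. Counts over the 47 genes that rest on these libraries are given with and without both, and so are the counts by role in Vhl/Rassf1a.

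With Cre, most replication genes fell in both genotypes that carry the Vhl alteration. In Vhl Cre against Vhl GFP, 33 of the 47 genes fell and 1, Rrm2, rose, at an edgeR adjusted p under 0.05. Over all 16573 genes of that comparison 18.7% fell and 17.4% rose. In Vhl/Rassf1a Cre against Vhl/Rassf1a GFP, 33 of the 47 fell and 0 rose, and Rrm2 was the 1 gene that had risen in Vhl and did not rise here. Over all genes of that comparison 14.8% fell and 14.9% rose. At an unadjusted p under 0.05, 35 of the 47 differed in either direction, and DESeq2 called 33 lower and 0 higher. With both libraries that stood apart left out, 32 of the 47 fell. The median log2 fold change of the 47 genes was -0.31 in Vhl and -0.34 in Vhl/Rassf1a, where the medians of all genes tested were -0.01 and 0.00. In bulk RNA, fewer cells in S phase and less of each transcript per cell cannot be told apart. CPM are relative to the library total, so a fall is a fall in the share of the counted RNA.

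**Figure D1:**
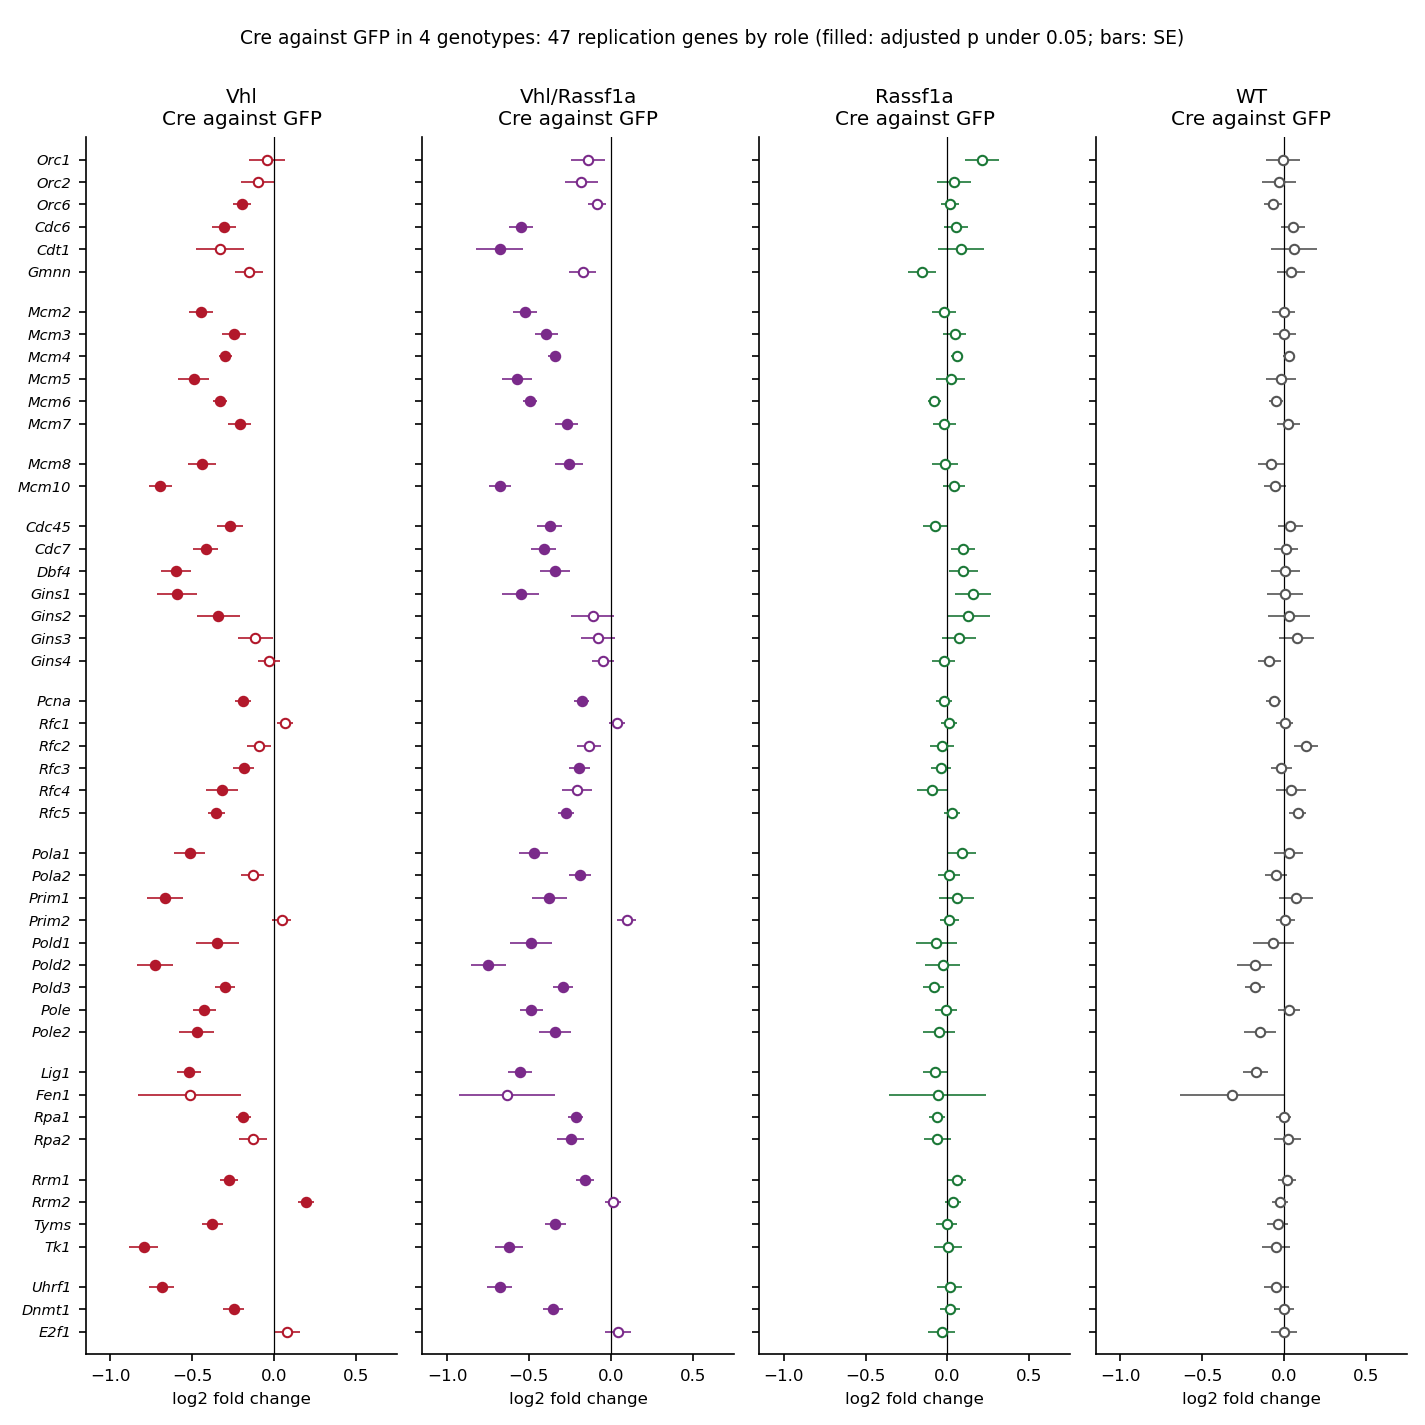
Log2 fold change of each replication gene in Cre against GFP libraries, in 4 genotypes (x axis, log2 scale; bars, SE from edgeR; filled points, adjusted p under 0.05). Genes run down the page by role, and 34 points are filled in Vhl, 33 in Vhl/Rassf1a and 0 in Rassf1a and in WT.

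In Rassf1a and in WT, Cre left the replication genes without a call. In Rassf1a Cre against Rassf1a GFP, edgeR called 0 of 47, with 0 at an unadjusted p under 0.05, 0 by DESeq2 and 0 without both libraries that stood apart, where 0.392% of all genes were called in either direction. In WT Cre against WT GFP, edgeR called 0 of 47, with 2 at an unadjusted p under 0.05 and 0 by DESeq2, where 1.26% of all genes were called in either direction. The median log2 fold change of the 47 was 0.01 in Rassf1a and 0.00 in WT. Tk1, thymidine kinase, had 39.5, 39.4 and 38.0 CPM in Rassf1a Cre, against 45.0, 37.5 and 34.2 CPM in Rassf1a GFP. In WT Cre it had 40.6, 45.6 and 39.2 CPM, against 43.4, 43.1 and 43.6 CPM in WT GFP. Both pairs of groups overlapped.

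The mean over the 47 genes of the log2 difference from WT GFP put each library in one order. The 3 Vhl Cre libraries were lowest, at -0.65, -0.62 and -0.57. The 3 Vhl/Rassf1a Cre libraries lay at -0.34, -0.33 and -0.35 and the 3 Vhl GFP libraries at about the same place, at -0.31, -0.29 and -0.30, while the other libraries lay between -0.14 and 0.03. The gap between Vhl/Rassf1a Cre and Vhl GFP was small beside the gap of either to the rest. In summed CPM the 47 genes held 1436 to 1493 CPM in Vhl Cre, against 1735 to 1751 CPM in Vhl GFP. They held 1740 to 1780 CPM in Vhl/Rassf1a Cre, against 2121 to 2228 CPM in Vhl/Rassf1a GFP. WT Cre held 2130 to 2243 CPM and WT GFP 2160 to 2250 CPM, which overlapped.

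**Figure D2:**
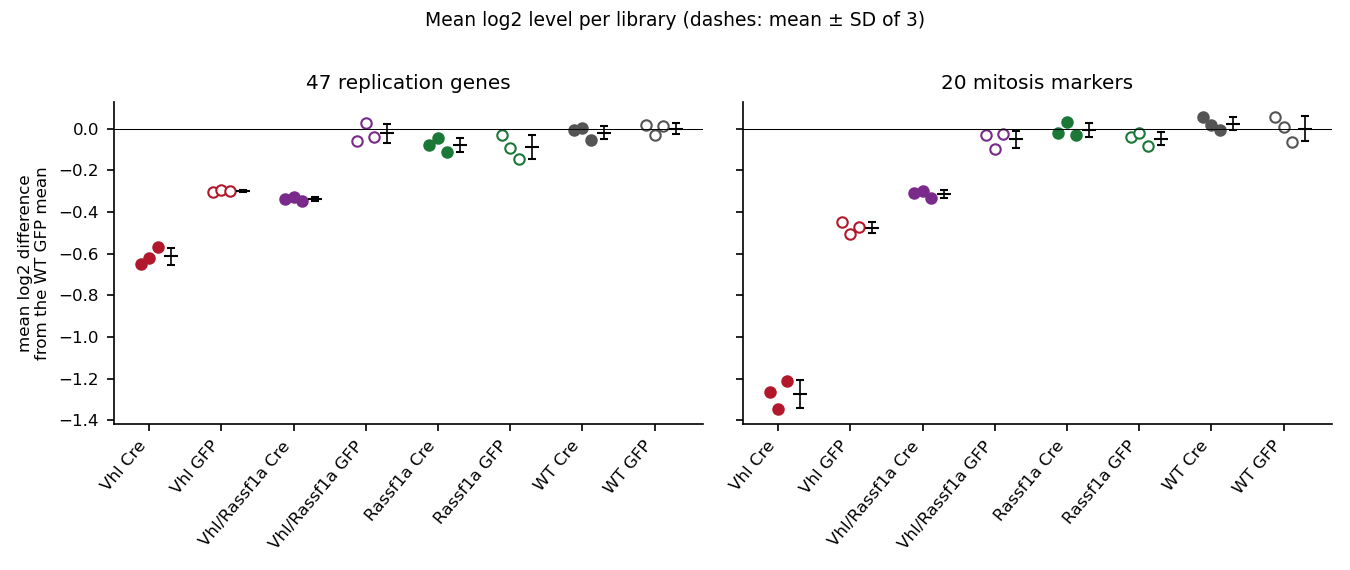
Mean log2 difference from the WT GFP mean (y axis) in each of the 24 libraries, for the 47 replication genes on the left and 20 mitosis markers on the right (points, libraries; dashes, mean ± SD of 3). The Vhl Cre libraries are lowest in both panels, and Vhl GFP and Vhl/Rassf1a Cre lie between them and the other libraries.

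Because E2F factors are known to act at promoters of these genes, the promoter windows of 39 of the 47 genes were scanned in RefSeq sequence of mouse GRCm38.p6, from 250 bases before to 50 after each annotated start. The E2F letters searched were TTTCCCGC, TTTCGCGC, TTTGCCGC and TTTGGCGC, on both strands, and a gene with several windows counted once. They were present in 17 of the 39 genes (43.6%), in 4.49% of the tested genes with a window and in 2.6% of all 27025 genes with a window. CCAAT, on either strand, was in 61.5% of the replication genes with a window and 41.06% of all genes with one, TTTGAA in 20.5% and 20.23%, and ACGTG or GCGTG, the core of the hypoxia response element, in 69.2% and 46.73%. In the tested genes with a window these 3 shares were 42.31%, 14.35% and 65.84%. Cre lowered 14 of the 17 genes with the E2F letters in Vhl (median log2 fold change -0.33) and 15 of 17 in Vhl/Rassf1a (-0.39). Of the 22 genes without the letters in the window, 15 fell in Vhl (median -0.30) and 15 in Vhl/Rassf1a (-0.26). A match describes the letters of a window and shows no binding, and no match says only that the letters are not in that window. The windows of the 6 genes with a match that had the smallest p in Vhl, all of which fell in both genotypes, are shown on the strand of the gene, with the E2F letters or their reverse complement in capitals. Uhrf1 (chr17:56304063-56304362, plus strand) has its match 185 bases before a start at 56304313, inside the gene, which begins at 56303321 in GENCODE. Another Uhrf1 window, from 56303087, holds CCAAT and no E2F letters. The Dnmt1 letters likewise lie in a window from 20952574, inside the gene, and not in the one from 20959839. The Mcm7 letters lie in a window from 138171834, inside the gene, which begins at 138172422 on the minus strand, and not in the one from 138171217. The Cdc6 window, from 98907901, also lies inside its gene, which begins at 98907801. Lig1 (chr7:13278576-13278875, plus strand) has its match 26 bases after its start, 13278826, on the opposite strand. GENCODE begins the Lig1 gene at 13277283. Pola1 (chrX:93632106-93632405, minus strand) has its match 138 bases before the start, on the opposite strand. Mcm6 (chr1:128359656-128359955, minus strand) has 3 matches and Mcm5 (chr8:75109259-75109558, plus strand) has 2, and in both genes a pair on opposite strands overlaps. Their RefSeq starts, 128359705 and 75109509, lie outside the GENCODE genes, which begin at 128359664 and 75109569. The ends of these windows were not found in a GENCODE transcript of the gene. Mcm8 (chr2:132815891-132816190, plus strand) has its match 39 bases after the start, on the opposite strand.
Uhrf1: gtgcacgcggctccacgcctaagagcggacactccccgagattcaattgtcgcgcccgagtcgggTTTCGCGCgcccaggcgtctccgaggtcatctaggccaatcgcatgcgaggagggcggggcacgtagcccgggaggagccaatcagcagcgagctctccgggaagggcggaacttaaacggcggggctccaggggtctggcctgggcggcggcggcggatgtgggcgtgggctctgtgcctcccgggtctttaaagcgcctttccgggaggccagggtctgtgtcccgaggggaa
Lig1: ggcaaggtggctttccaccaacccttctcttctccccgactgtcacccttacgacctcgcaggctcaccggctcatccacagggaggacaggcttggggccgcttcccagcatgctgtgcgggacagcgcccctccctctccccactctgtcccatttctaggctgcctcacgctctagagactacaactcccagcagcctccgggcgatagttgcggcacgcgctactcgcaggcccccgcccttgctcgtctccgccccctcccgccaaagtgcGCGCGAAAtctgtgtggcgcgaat
Pola1: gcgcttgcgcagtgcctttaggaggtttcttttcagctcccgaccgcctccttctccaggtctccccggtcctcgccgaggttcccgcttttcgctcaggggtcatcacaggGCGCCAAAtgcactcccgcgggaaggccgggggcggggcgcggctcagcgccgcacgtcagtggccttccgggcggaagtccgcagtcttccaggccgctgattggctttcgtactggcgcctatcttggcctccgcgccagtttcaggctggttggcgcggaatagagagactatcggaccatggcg
Mcm6: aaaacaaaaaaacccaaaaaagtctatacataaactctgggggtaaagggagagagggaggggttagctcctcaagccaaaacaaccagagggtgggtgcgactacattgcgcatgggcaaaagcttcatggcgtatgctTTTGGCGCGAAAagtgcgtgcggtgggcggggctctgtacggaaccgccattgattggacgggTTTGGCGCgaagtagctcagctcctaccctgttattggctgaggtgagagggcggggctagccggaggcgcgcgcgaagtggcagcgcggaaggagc
Mcm5: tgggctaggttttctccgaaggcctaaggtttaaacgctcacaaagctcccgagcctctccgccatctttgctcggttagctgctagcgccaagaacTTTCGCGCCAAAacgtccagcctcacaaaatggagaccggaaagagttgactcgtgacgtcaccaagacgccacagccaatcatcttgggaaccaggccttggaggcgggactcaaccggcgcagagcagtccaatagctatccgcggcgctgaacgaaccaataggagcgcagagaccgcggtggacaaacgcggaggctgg
Mcm8: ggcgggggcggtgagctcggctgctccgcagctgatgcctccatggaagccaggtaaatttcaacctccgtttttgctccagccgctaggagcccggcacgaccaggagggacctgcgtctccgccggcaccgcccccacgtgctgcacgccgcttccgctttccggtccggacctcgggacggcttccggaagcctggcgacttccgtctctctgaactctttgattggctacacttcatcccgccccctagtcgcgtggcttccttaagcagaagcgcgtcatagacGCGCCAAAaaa

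**Figure D3:**
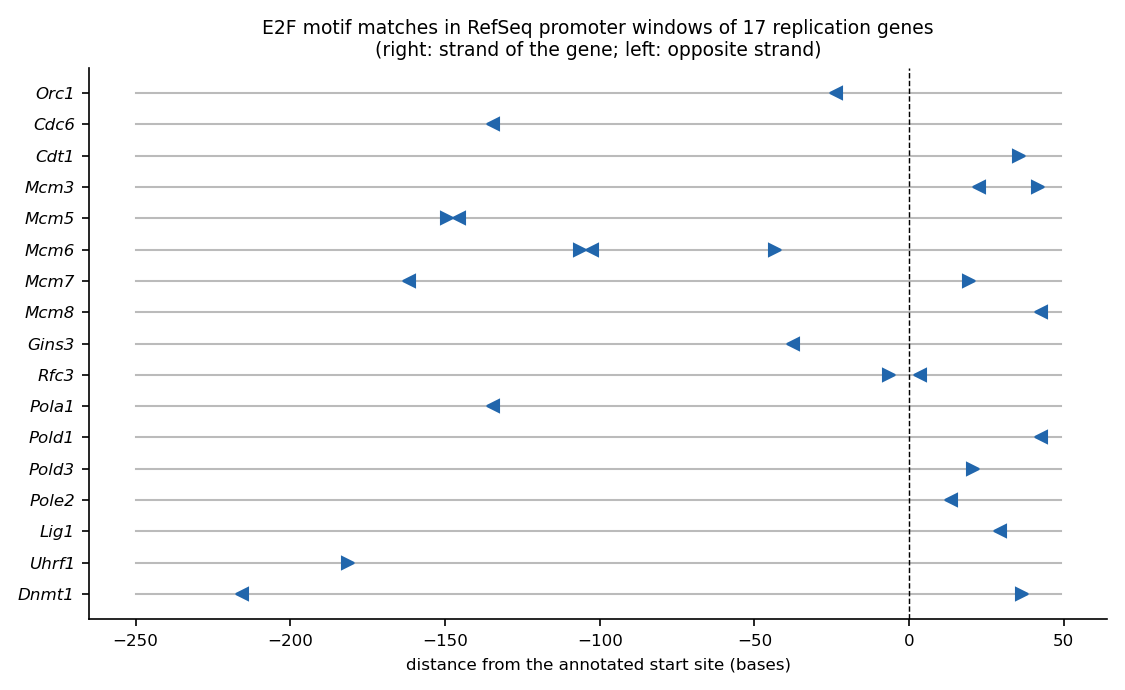
Positions of the E2F letters in the promoter windows of the 17 replication genes that hold them (x axis, bases from the annotated start; triangles point right for the strand of the gene and left for the opposite strand). Matches lie on both sides of the annotated starts, and Mcm5 and Mcm6 each hold an overlapping pair. The Uhrf1, Dnmt1 and Mcm7 matches belong to windows of starts inside the gene, and another window of each gene holds no E2F letters. The Cdc6 and Lig1 windows also lie inside the gene.

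Among the licensing factors, Cdc6 fell in both genotypes, and of the origin recognition genes Orc6 passed in Vhl. Cdc6, the ATPase that loads the helicase, had 9.08, 9.31 and 9.81 CPM in Vhl Cre, against 11.4, 11.7 and 11.8 CPM in Vhl GFP (log2 fold change -0.31, SE 0.07, edgeR adjusted p = 0.00248). It had 9.88, 10.4 and 9.19 CPM in Vhl/Rassf1a Cre, against 13.6, 15.1 and 14.2 CPM in Vhl/Rassf1a GFP (log2 fold change -0.55, SE 0.07, edgeR adjusted p = 4.61e-06). Neither pair of groups overlapped. Cdt1, its partner in loading, had 9.05, 10.6 and 10.3 CPM in Vhl Cre, against 12.0, 13.4 and 12.3 CPM in Vhl GFP. These groups did not overlap, but the difference did not pass the threshold (log2 fold change -0.33, SE 0.15, edgeR adjusted p = 0.0877); it passed with no filter on low counts, with offsets corrected for GC and when only the Vhl groups were fitted (adjusted p 0.00366 to 0.00742). In Vhl/Rassf1a, Cdt1 fell, with 12.2, 11.6 and 11.8 CPM in Vhl/Rassf1a Cre and 16.6, 23.3 and 17.1 CPM in Vhl/Rassf1a GFP (log2 fold change -0.68, SE 0.14, edgeR adjusted p = 0.000811). Vhl/Rassf1a GFP replicate 2, one of the libraries that stood apart, was the highest of the 6. Orc1, the largest subunit of the origin recognition complex, had 5.38, 5.75 and 5.93 CPM in Vhl Cre, against 5.87, 5.38 and 6.31 CPM in Vhl GFP, and the groups overlapped (log2 fold change -0.04, SE 0.11, edgeR adjusted p = 0.8). Orc6, another subunit, had 20.9, 21.7 and 22.0 CPM in Vhl Cre, against 23.7, 24.4 and 25.9 CPM in Vhl GFP (log2 fold change -0.20, SE 0.05, edgeR adjusted p = 0.0069), a fall that did not pass with no filter on low counts (adjusted p = 0.0654). Orc2 and Gmnn, which encodes geminin, did not pass in either genotype, with log2 fold changes of -0.10 and -0.15 in Vhl and -0.18 and -0.17 in Vhl/Rassf1a. Orc2 passed in Vhl/Rassf1a without both libraries that stood apart (-0.32, edgeR adjusted p = 0.00029), without Vhl/Rassf1a GFP replicate 2 alone (-0.33, 0.00749) and with offsets corrected for GC (-0.20, 0.0157). Orc6 and Orc2 share exon bases with Vps35 and Nif3l1 on the opposite strand, and the strand setting of the counting is not given in the sources used here.

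The 6 subunits of the Mcm2 to Mcm7 helicase fell together in both genotypes. All 6 passed the test in Vhl, at log2 fold changes between -0.49 and -0.21, and all 6 in Vhl/Rassf1a, between -0.57 and -0.27. Mcm6 had 66.8, 68.0 and 67.2 CPM in Vhl Cre, against 82.0, 86.6 and 85.7 CPM in Vhl GFP (log2 fold change -0.33, SE 0.04, edgeR adjusted p = 1.19e-06). In Vhl/Rassf1a Cre it had 74.2, 77.1 and 77.1 CPM, against 104, 112 and 105 CPM in Vhl/Rassf1a GFP (log2 fold change -0.49, SE 0.04, edgeR adjusted p = 4.72e-09). The groups were apart in both genotypes. Mcm4 had 64.0, 65.5 and 63.8 CPM in Vhl Cre, against 80.3, 79.2 and 78.2 CPM in Vhl GFP (log2 fold change -0.30, SE 0.04, edgeR adjusted p = 1.63e-06), and 74.2, 73.8 and 72.0 CPM in Vhl/Rassf1a Cre, against 94.6, 89.3 and 95.1 CPM in Vhl/Rassf1a GFP (log2 fold change -0.34, SE 0.04, edgeR adjusted p = 3.4e-07). Mcm5 had 35.0, 36.0 and 38.8 CPM in Vhl Cre, against 51.0, 52.2 and 51.4 CPM in Vhl GFP (log2 fold change -0.49, SE 0.09, edgeR adjusted p = 0.000183). The Vhl/Rassf1a values were 53.4, 53.1 and 50.7 CPM in Vhl/Rassf1a Cre, against 73.5, 88.4 and 71.5 CPM in Vhl/Rassf1a GFP (log2 fold change -0.57, SE 0.09, edgeR adjusted p = 3.86e-05). Its 3 Vhl/Rassf1a Cre libraries were at the level of the 3 Vhl GFP libraries. Mcm7 changed least of the 6 in Vhl, with 52.4, 56.9 and 55.1 CPM in Vhl Cre and 65.6, 60.5 and 64.4 CPM in Vhl GFP (log2 fold change -0.21, SE 0.07, edgeR adjusted p = 0.0216). Without Vhl GFP replicate 1, Vhl GFP replicate 3 or Vhl Cre replicate 1, its adjusted p was 0.0699, 0.0525 and 0.0826. In Vhl/Rassf1a its log2 fold change was -0.27 (edgeR adjusted p = 0.00514), and 0.0604 in a fit of those groups alone. Mcm2 and Mcm3 had log2 fold changes of -0.45 and -0.24 in Vhl and of -0.52 and -0.39 in Vhl/Rassf1a.

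Mcm10, which is no part of the ring but binds it when origins fire, had a lower log2 fold change than any ring subunit in both genotypes, a difference that was not tested. It had 7.94, 8.23 and 8.54 CPM in Vhl Cre, against 13.1, 13.2 and 13.8 CPM in Vhl GFP (log2 fold change -0.70, SE 0.07, edgeR adjusted p = 4.58e-08). It had 11.9, 12.1 and 12.2 CPM in Vhl/Rassf1a Cre, against 19.8, 19.8 and 18.3 CPM in Vhl/Rassf1a GFP (log2 fold change -0.68, SE 0.07, edgeR adjusted p = 5.81e-08). In WT it had 19.1, 18.6 and 18.2 CPM in WT Cre and 19.4, 20.3 and 18.4 CPM in WT GFP, which overlapped. Mcm8, a relative that acts in DNA repair, had 5.10, 5.22 and 5.26 CPM in Vhl Cre, against 7.35, 7.24 and 6.62 CPM in Vhl GFP (log2 fold change -0.44, SE 0.09, edgeR adjusted p = 0.000249). Its Vhl/Rassf1a values were 7.05, 5.94 and 6.95 CPM in Vhl/Rassf1a Cre, against 6.97, 8.29 and 8.60 CPM in Vhl/Rassf1a GFP (log2 fold change -0.26, SE 0.08, edgeR adjusted p = 0.022). Those groups overlapped, and the adjusted p was 0.0824, 0.124 and 0.125 without Vhl/Rassf1a GFP replicate 2, Vhl/Rassf1a GFP replicate 3 or Vhl/Rassf1a Cre replicate 2.

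Of the 7 firing factors, 5 fell in Vhl and 4 in Vhl/Rassf1a. Dbf4, the activator of the kinase Cdc7, had 22.3, 20.1 and 21.8 CPM in Vhl Cre, against 32.6, 32.6 and 32.0 CPM in Vhl GFP (log2 fold change -0.60, SE 0.09, edgeR adjusted p = 1.64e-05). In Vhl/Rassf1a Cre it had 32.4, 32.4 and 32.4 CPM, against 45.5, 34.3 and 43.2 CPM in Vhl/Rassf1a GFP (log2 fold change -0.34, SE 0.09, edgeR adjusted p = 0.00576), with an adjusted p of 0.0611 without Vhl/Rassf1a GFP replicate 1. The groups were apart in both genotypes. Cdc7 itself had log2 fold changes of -0.42 in Vhl and -0.41 in Vhl/Rassf1a, and Cdc45, which joins the helicase at firing, of -0.27 and -0.37. The GINS subunits, which form one complex with each other, differed in their calls. Gins1 fell in both genotypes (-0.59 in Vhl, -0.55 in Vhl/Rassf1a), and Gins2 passed in Vhl (log2 fold change -0.34, SE 0.13, edgeR adjusted p = 0.0463) and not in Vhl/Rassf1a (-0.11). In Vhl, leaving out any of 4 libraries (Vhl GFP replicate 1 or 3, Vhl Cre replicate 1 or 3) put it past 0.05, at 0.078 to 0.163. Gins4 had 20.6, 21.2 and 24.2 CPM in Vhl Cre, against 23.5, 22.8 and 21.1 CPM in Vhl GFP, and these groups overlapped (log2 fold change -0.03, SE 0.07, edgeR adjusted p = 0.772). Gins3 had log2 fold changes of -0.12 and -0.08 and passed in neither genotype. Gins2 shares 2758 exon bases with Gse1 on the opposite strand.

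Of the sliding clamp and its loader, 4 of 6 genes fell in Vhl and 3 of 6 in Vhl/Rassf1a, with a median log2 fold change of -0.19 in each. Pcna, the clamp, had 64.5, 66.2 and 62.1 CPM in Vhl Cre, against 73.0, 74.5 and 72.7 CPM in Vhl GFP (log2 fold change -0.19, SE 0.05, edgeR adjusted p = 0.00269). It had 67.1, 72.2 and 70.4 CPM in Vhl/Rassf1a Cre, against 79.3, 74.4 and 83.5 CPM in Vhl/Rassf1a GFP (log2 fold change -0.18, SE 0.05, edgeR adjusted p = 0.00599). The groups did not overlap, and the second difference had an adjusted p of 0.0543 without Vhl/Rassf1a GFP replicate 3 and 0.0505 without Vhl/Rassf1a Cre replicate 1. In a fit of the Vhl/Rassf1a groups alone its edgeR adjusted p was 0.0899. Of the clamp loader subunits, Rfc5 changed most, with 14.8, 14.0 and 15.2 CPM in Vhl Cre and 19.4, 18.5 and 18.2 CPM in Vhl GFP (log2 fold change -0.35, SE 0.05, edgeR adjusted p = 1.04e-05), and its log2 fold change in Vhl/Rassf1a was -0.27. Rfc2 had 29.2, 28.5 and 30.8 CPM in Vhl Cre, against 33.1, 31.9 and 29.5 CPM in Vhl GFP, and the groups overlapped (log2 fold change -0.09, SE 0.07, edgeR adjusted p = 0.366). Rfc1, the large subunit, was not lower in either genotype (0.06 and 0.04, neither past the threshold). Rfc3 passed narrowly in both (-0.19 and -0.19, edgeR adjusted p = 0.0242 and 0.0238), and leaving out 1 library gave adjusted p of up to 0.135 in Vhl (without Vhl GFP replicate 2) and 0.0853 in Vhl/Rassf1a (without Vhl/Rassf1a Cre replicate 2). Rfc4 passed in Vhl (-0.32) and not in Vhl/Rassf1a (-0.21), and its adjusted p in Vhl was 0.0776 without Vhl GFP replicate 1 and 0.0955 without Vhl Cre replicate 1. In Vhl/Rassf1a it passed without both libraries that stood apart (-0.30, edgeR adjusted p = 0.0142), without Vhl/Rassf1a GFP replicate 2 alone (0.0217) and with offsets corrected for GC (0.0211). Rfc2 passed in Vhl/Rassf1a without Vhl/Rassf1a GFP replicate 1 (edgeR adjusted p = 0.0421). Pcna-ps2, a pseudogene of Pcna, had a mean of 20.2 counts, and reads shared between copies cannot be told apart. Rfc2, Rfc4 and Rfc5 share exon bases with Lat2, Eif4a2 and Wsb2 on the opposite strand, and Eif4a2 is much the more counted of its pair.

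Among primase and the polymerases, 7 of 9 genes fell in Vhl and 8 of 9 in Vhl/Rassf1a. Pold2, the second subunit of polymerase delta, had 14.0, 13.2 and 14.4 CPM in Vhl Cre, against 22.8, 21.9 and 24.3 CPM in Vhl GFP (log2 fold change -0.73, SE 0.11, edgeR adjusted p = 1.3e-05). It had 17.6, 17.7 and 16.8 CPM in Vhl/Rassf1a Cre, against 26.3, 35.5 and 25.5 CPM in Vhl/Rassf1a GFP (log2 fold change -0.75, SE 0.11, edgeR adjusted p = 1.03e-05). The groups were apart in both genotypes, and of the 47 genes Pold2 had the lowest log2 fold change in Vhl/Rassf1a with all libraries. Vhl/Rassf1a GFP replicate 2, one of the libraries that stood apart, gave the 35.5 CPM, the highest of these values, and the rank was taken with it included. The other delta subunits fell too, with log2 fold changes of -0.35 in Vhl and -0.49 in Vhl/Rassf1a for Pold1 and of -0.30 and -0.29 for Pold3. Pold1 had an adjusted p of up to 0.169 in Vhl with 1 library left out (Vhl GFP replicate 2 or 3, or Vhl Cre replicate 1 or 2). Of the primase subunits, Prim1 passed and Prim2 did not. Prim1, the catalytic subunit, fell to 0.63 times its Vhl GFP level in Vhl Cre (log2 fold change -0.67, SE 0.11, edgeR adjusted p = 4.12e-05) and to 0.771 times its Vhl/Rassf1a GFP level in Vhl/Rassf1a Cre (log2 fold change -0.38, SE 0.11, edgeR adjusted p = 0.00942), with an adjusted p of 0.103 without Vhl/Rassf1a GFP replicate 3 and 0.0599 without Vhl/Rassf1a Cre replicate 3. Prim2, the large subunit, had 20.2, 19.5 and 20.7 CPM in Vhl Cre, against 18.3, 20.9 and 19.3 CPM in Vhl GFP, and the groups overlapped (log2 fold change 0.05, SE 0.06, edgeR adjusted p = 0.582). Pola1, the catalytic subunit of polymerase alpha, fell in both (-0.52 and -0.47), and its partner Pola2 passed in Vhl/Rassf1a and not in Vhl (-0.13 in Vhl and -0.19 in Vhl/Rassf1a), with an adjusted p of 0.253 without Vhl/Rassf1a GFP replicate 2, 0.165 without Vhl/Rassf1a Cre replicate 2 and 0.0757 without Vhl/Rassf1a Cre replicate 3. Pole and Pole2, of polymerase epsilon, fell in both, with log2 fold changes of -0.43 and -0.47 in Vhl and -0.48 and -0.34 in Vhl/Rassf1a, and Pole2 lost its call in Vhl/Rassf1a without Vhl/Rassf1a GFP replicate 3, Vhl/Rassf1a Cre replicate 1 or Vhl/Rassf1a Cre replicate 3 (adjusted p 0.0505 to 0.0705).

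Lig1, the ligase that seals Okazaki fragments, had 23.4, 24.2 and 27.4 CPM in Vhl Cre, against 35.5, 35.8 and 36.4 CPM in Vhl GFP (log2 fold change -0.52, SE 0.07, edgeR adjusted p = 7.32e-06). It had 33.6, 32.0 and 32.7 CPM in Vhl/Rassf1a Cre, against 44.8, 53.4 and 46.4 CPM in Vhl/Rassf1a GFP (log2 fold change -0.56, SE 0.07, edgeR adjusted p = 3.71e-06), and the groups were apart in both genotypes. Rpa2, a subunit of the single-strand binding protein, had 14.8, 14.9 and 14.1 CPM in Vhl Cre, against 15.6, 15.9 and 16.4 CPM in Vhl GFP, and did not pass (log2 fold change -0.13, SE 0.08, edgeR adjusted p = 0.249). It passed in Vhl/Rassf1a (log2 fold change -0.25, SE 0.08, edgeR adjusted p = 0.0269), and leaving out Vhl/Rassf1a GFP replicate 2 or any Vhl/Rassf1a Cre library ended the call (adjusted p 0.0523 to 0.233). Rpa1, the large subunit, fell by 0.19 in Vhl and by 0.21 in Vhl/Rassf1a on the log2 scale. Fen1, the flap nuclease, had few counts, and its log2 fold changes of -0.52 (SE 0.32) in Vhl and -0.63 (SE 0.29) in Vhl/Rassf1a did not pass. In Vhl/Rassf1a it passed with no filter on low counts and without Vhl/Rassf1a GFP replicate 1 (adjusted p 0.0251 and 0.0127). Of its 2422 exon bases, 1909 lie opposite the antisense gene Gm10143, so its level is uncertain. Lig1, Tk1, Cdc45, Mcm7 and Orc1 share 64 to 376 exon bases with a gene on the opposite strand.

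In nucleotide supply, Tk1 fell and Rrm2 did not. Tk1, which salvages thymidine, had 16.7, 18.0 and 19.9 CPM in Vhl Cre, against 32.2, 30.9 and 31.6 CPM in Vhl GFP (log2 fold change -0.80, SE 0.09, edgeR adjusted p = 2.27e-07). It had 28.4, 26.2 and 25.8 CPM in Vhl/Rassf1a Cre, against 38.3, 46.8 and 38.7 CPM in Vhl/Rassf1a GFP (log2 fold change -0.62, SE 0.09, edgeR adjusted p = 7.97e-06). The groups were apart in both, and of the 47 genes Tk1 had the lowest log2 fold change in Vhl. Rrm2, the small subunit of ribonucleotide reductase, had 137, 143 and 144 CPM in Vhl Cre, all above the 123, 125 and 122 CPM in Vhl GFP (log2 fold change 0.20, SE 0.05, edgeR adjusted p = 0.00326). In Vhl/Rassf1a Cre it had 179, 184 and 165 CPM, against 182, 166 and 176 CPM in Vhl/Rassf1a GFP, and the groups overlapped (log2 fold change 0.01, SE 0.05, edgeR adjusted p = 0.86). Rrm1, the large subunit, fell in both (-0.28 and -0.15). Its call in Vhl/Rassf1a (edgeR adjusted p = 0.0359) was lost without Vhl/Rassf1a GFP replicate 1 or 3 or any Vhl/Rassf1a Cre library, at 0.0585 to 0.262. Tyms, thymidylate synthase, fell by 0.38 in Vhl and by 0.34 in Vhl/Rassf1a on the log2 scale.

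Uhrf1, which recognises DNA methylated on one strand behind the fork, had 37.9, 38.5 and 43.5 CPM in Vhl Cre, against 63.5, 66.5 and 62.9 CPM in Vhl GFP (log2 fold change -0.69, SE 0.08, edgeR adjusted p = 2.19e-07). It had 60.5, 55.4 and 57.5 CPM in Vhl/Rassf1a Cre, against 88.1, 102 and 86.9 CPM in Vhl/Rassf1a GFP (log2 fold change -0.68, SE 0.08, edgeR adjusted p = 3.62e-07). Dnmt1, the methyltransferase it recruits, fell by 0.25 and 0.35 on the log2 scale. E2f1, the transcription factor among the 47, was not called in any of the 12 comparisons. It had 42.8, 51.5 and 48.5 CPM in Vhl Cre, against 45.5, 46.0 and 43.8 CPM in Vhl GFP (log2 fold change 0.08, SE 0.08, edgeR adjusted p = 0.502), and 47.4, 43.6 and 46.2 CPM in Vhl/Rassf1a Cre, against 45.2, 48.0 and 39.9 CPM in Vhl/Rassf1a GFP (log2 fold change 0.04, SE 0.08, edgeR adjusted p = 0.731). The groups overlapped in both.

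**Figure D4:**
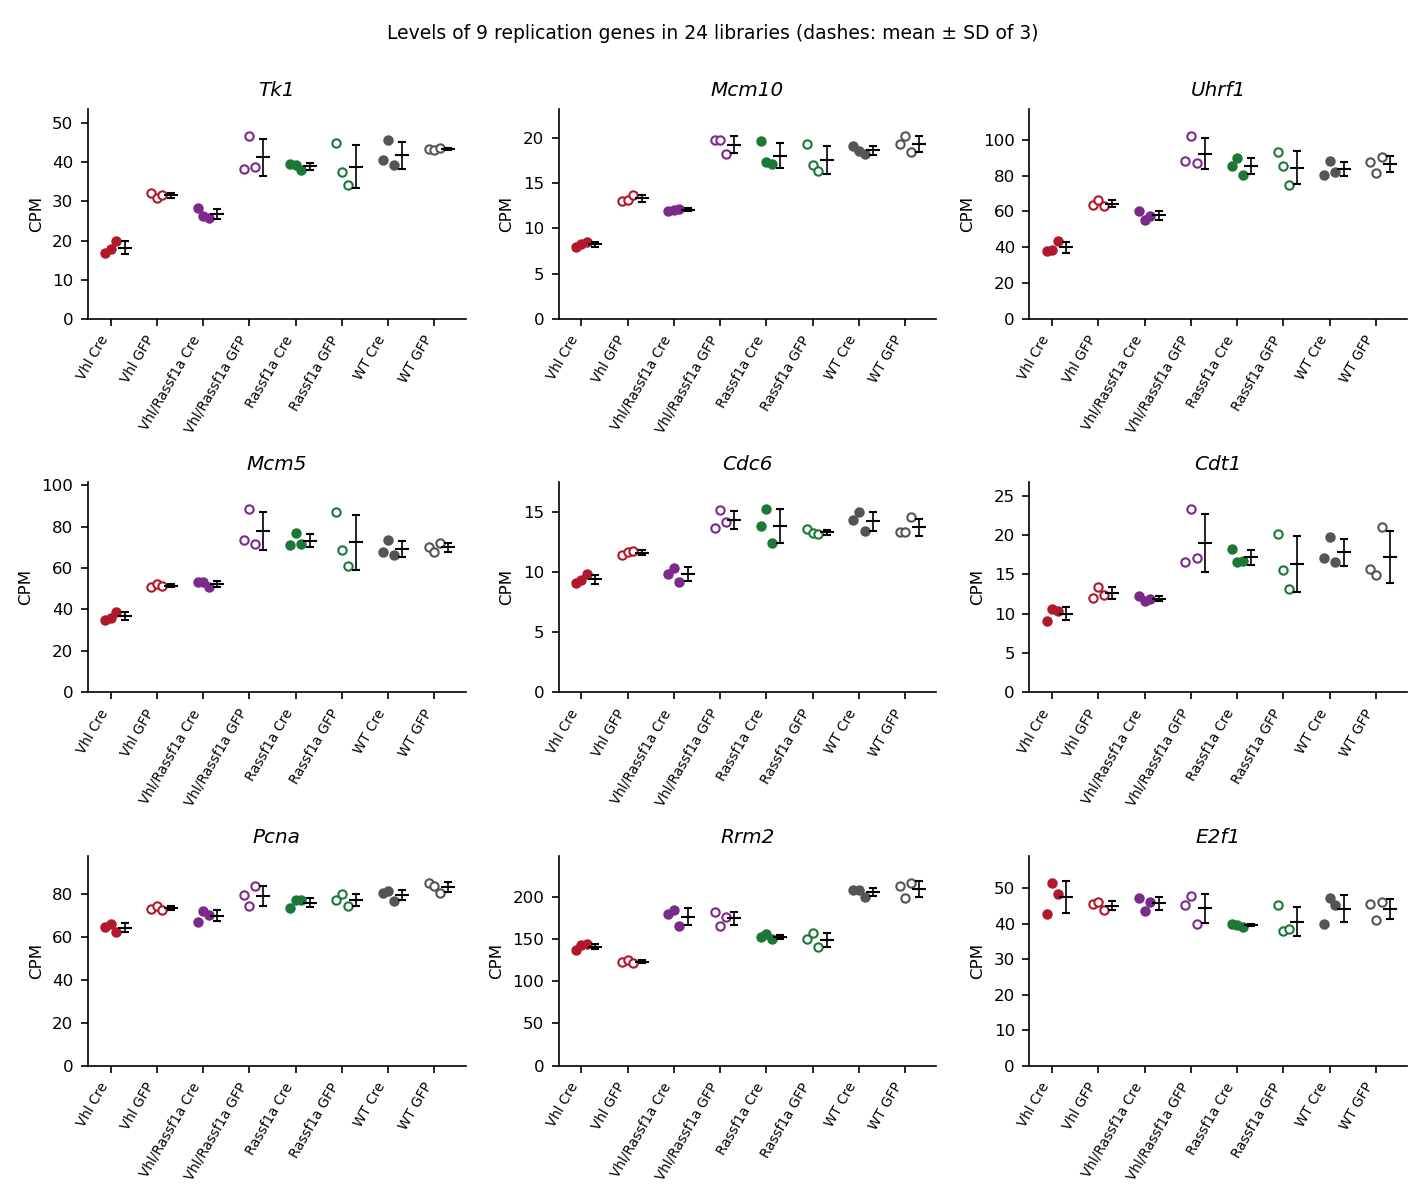
CPM (y axis, from 0) of 9 replication genes in the 24 libraries of 8 groups (points, libraries; dashes, mean ± SD of 3). Tk1, Mcm10, Uhrf1 and Mcm5 are lowest in Vhl Cre and lie close together in Vhl GFP and Vhl/Rassf1a Cre, Rrm2 is lowest in Vhl GFP, and E2f1 overlaps across most groups.

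Per length, the 47 genes spanned a wide range of levels. In CPM per kb of exon, Rrm2 was highest, with a mean of 50.9 in Vhl Cre, 44.5 in Vhl GFP and 75.5 in WT GFP. Pcna followed at 26.8 in Vhl Cre and 34.6 in WT GFP, then Rpa1 at 19.9 in Vhl Cre and Mcm4 at 26.5 in WT GFP. Fen1 was lowest, at 0.356 in Vhl Cre and 0.487 in WT GFP, and its exon overlap with Gm10143 leaves that level uncertain. The next lowest was Mcm10 in Vhl Cre, at 1.07 (2.52 in WT GFP). In WT GFP it was Orc1, at 2.36 (1.63 in Vhl Cre). The ring subunits ranged from 6.49 (Mcm2) to 17.9 (Mcm4) in Vhl Cre and from 10.8 to 26.5 in WT GFP, per kb. These values divide by all annotated exon bases of a gene, 6956 for Mcm2 and 3752 for Mcm3. Before that division, Mcm2 and Mcm3 averaged 45.1 and 46.1 CPM in Vhl Cre. Per kb, differences between genes therefore depend on the annotated length and do not show unequal transcript numbers. As a ratio of mean levels, Vhl Cre over WT GFP was 0.419 for Tk1, 0.426 for Mcm10, 0.436 for Dbf4, 0.462 for Uhrf1 and 0.478 for Pola1. It was 0.979 for Gins4, 0.949 for Rfc1 and 1.08 for E2f1. These ratios join the difference between genotypes to that of Cre.

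The difference between the Cre effects was tested against WT, which asks whether the fall exceeded what Cre did in wild-type cells. The Cre effect in Vhl was below that in WT for 23 genes and above it for 1, Rrm2, where 12.5% of all genes were below and 10.7% above. Mcm10 (log2 difference -0.64, SE 0.10, edgeR adjusted p = 2.77e-05), Mcm4 (log2 difference -0.33, SE 0.05, edgeR adjusted p = 7.93e-05) and Tk1 (log2 difference -0.75, SE 0.12, edgeR adjusted p = 9.17e-05) had the smallest p. For Rrm2 (log2 difference 0.22, SE 0.07, edgeR adjusted p = 0.0233), the adjusted p lay between 0.0599 and 0.0688 when WT GFP replicate 1, WT GFP replicate 3, WT Cre replicate 3, Vhl GFP replicate 3 or Vhl Cre replicate 3 was left out. The Cre effect in Vhl/Rassf1a was also below that in WT for 23 genes and above it for 0 (28 at an unadjusted p under 0.05 in either direction, 0 higher by DESeq2), where 7.40% of all genes were below and 7.41% above. It was below for 25 with both libraries that stood apart left out. Mcm6 (log2 difference -0.44, SE 0.06, edgeR adjusted p = 1.18e-05), Mcm4 (log2 difference -0.37, SE 0.05, edgeR adjusted p = 3.42e-05) and Mcm10 (log2 difference -0.62, SE 0.10, edgeR adjusted p = 6.17e-05) had the smallest p. Both differences share the WT libraries. Against Rassf1a, the Cre effect in Vhl/Rassf1a was below for 20 genes and above for 0 (30 at an unadjusted p under 0.05 in either direction, 0 higher by DESeq2), and 7.10% of all genes were below and 7.95% above. It was below for 28 without both libraries. Mcm10 (log2 difference -0.72, SE 0.09, edgeR adjusted p = 9.48e-06), Mcm4 (log2 difference -0.40, SE 0.05, edgeR adjusted p = 1.31e-05) and Mcm6 (log2 difference -0.41, SE 0.06, edgeR adjusted p = 2.73e-05) led. Between Rassf1a and WT the Cre effect differed for 0 of 47 genes (0 at an unadjusted p under 0.05, 0 by DESeq2, 0 without both libraries), and 0.00603% of all genes differed.

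Vhl and Vhl/Rassf1a were compared gene by gene, in comparisons that share no library. Of the 33 replication genes that fell in each, 30 fell in both, 90.9% of either list. Over all 16573 genes, 1693 fell in both, 54.5% of those that fell in Vhl and 69.0% of those that fell in Vhl/Rassf1a. This difference in shares was not tested. With all libraries, Orc6, Gins2 and Rfc4 passed in Vhl and not in Vhl/Rassf1a, Cdt1, Pola2 and Rpa2 in Vhl/Rassf1a and not in Vhl, and Orc1, Orc2, Gmnn, Gins3, Gins4, Rfc1, Rfc2, Prim2, Fen1 and E2f1 in neither. Without both libraries that stood apart, 32 fell in Vhl/Rassf1a, and 30 of them also fell in Vhl, 90.9% of the Vhl list and 93.8% of the Vhl/Rassf1a list. Orc6, Mcm8 and Gins2 then passed in Vhl alone and Orc2 and Cdt1 in Vhl/Rassf1a alone. The log2 fold changes of both genotypes had a Pearson r of 0.843 across the 47 genes and of 0.744 across all 16573, a description across genes, which are not independent replicates. By role, the genes that fell in Vhl/Rassf1a without both libraries were 3 of 6 licensing factors (2 with all libraries), 1 of 2 other MCM proteins (2), 4 of 6 of the clamp and its loader (3), 7 of 9 of primase and polymerases (8) and 2 of 4 lagging-strand factors (3). The other roles had the same counts in both settings. The median log2 fold change without both was -0.28 for the licensing factors, against -0.18 with all libraries, and -0.19 for the lagging-strand factors, against -0.40. The difference of the Cre effects, Vhl/Rassf1a minus Vhl, passed for 0 of 47 genes with edgeR, with 3 at an unadjusted p under 0.05 and 0 by DESeq2, where 6.09% of all genes passed. The median size of the difference was 0.08, and its median SE was 0.11, both on the log2 scale. For Mcm10 the difference was 0.02 with a 95% interval of -0.19 to 0.23, for Uhrf1 0.01 with -0.22 to 0.24, and for Cdt1 -0.35 with -0.78 to 0.09, so differences of that size were not shown absent. The interval excluded 0 for Cdc6 (-0.242, -0.465 to -0.019), Mcm6 (-0.16, -0.286 to -0.035) and Rrm2 (-0.18, -0.328 to -0.032). Their edgeR adjusted p were 0.218, 0.128 and 0.153. Without both libraries that stood apart, 3 genes passed. The Cre effect in Vhl/Rassf1a was then above that in Vhl for Gins2 (0.42, edgeR adjusted p = 0.0205) and Tk1 (0.28, edgeR adjusted p = 0.038) and below it for Rrm2 (-0.21, edgeR adjusted p = 0.0403). Rrm2 also passed when only Vhl/Rassf1a GFP replicate 2 was left out (edgeR adjusted p = 0.0499).

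Mitosis markers did differ between these genotypes. All 20 fell in Vhl (median log2 fold change -0.82) and 16 of 20 in Vhl/Rassf1a (-0.30), where 18.7% and 14.8% of all genes fell. The Cre effect in Vhl/Rassf1a was above that in Vhl for 20 of 20 (median difference 0.53). Of all 16573 genes, 570 were above and 440 below (median difference 0.01). Ccnb1, cyclin B1, had a log2 fold change of -0.99 in Vhl and -0.30 in Vhl/Rassf1a, a difference of 0.69 (SE 0.08, edgeR adjusted p = 1.22e-05). Bub1b, of the spindle checkpoint, differed by 0.51, Ccnb2 by 0.78 and Kif23, a kinesin of cytokinesis, by 0.55. Set beside this, the median difference of the 47 replication genes between the same genotypes was -0.02. The difference between the gene lists was not tested.

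**Figure D5:**
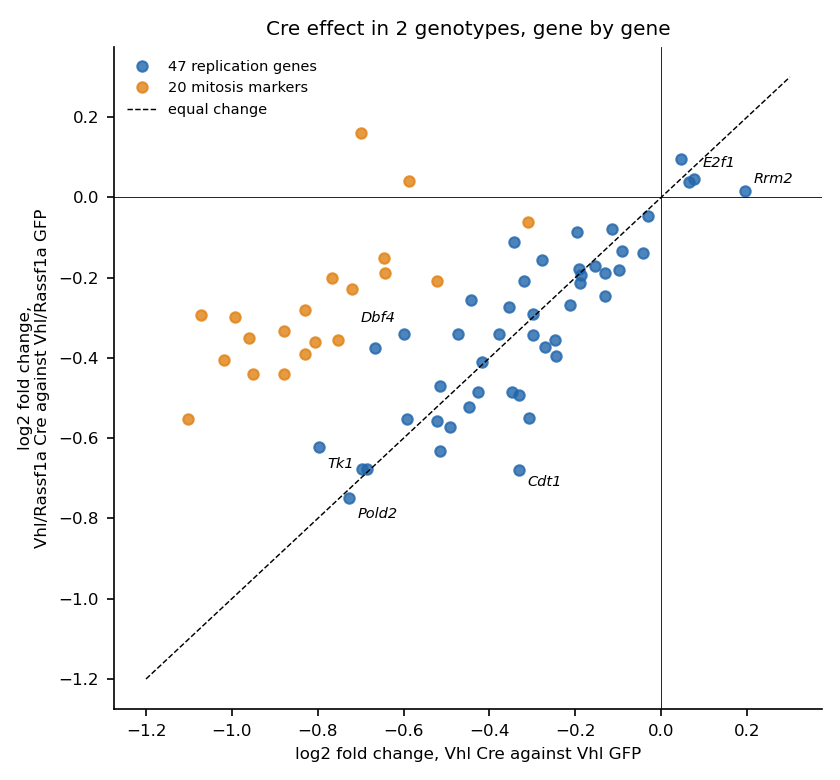
Log2 fold change with Cre in Vhl/Rassf1a (y axis) against that in Vhl (x axis), for 47 replication genes and 20 mitosis markers (points, genes; dashed line, equal change). The replication genes lie along the line, and the 20 mitosis markers lie above it.

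The other genes of the pathway moved in the same direction in part. For scale, 18.7% of all genes fell and 17.4% rose in Vhl, and 14.8% fell and 14.9% rose in Vhl/Rassf1a. In Vhl, 12 of 26 other replication factors fell and 1 rose, in Vhl/Rassf1a 12 fell and 1 rose. Ticrr (log2 fold change -0.74 in Vhl), which recruits Cdc45, Clspn (-0.51), a mediator of the replication checkpoint, Timeless (-0.62), of the fork protection complex, and Mtbp (-0.43), a partner of Ticrr, had the smallest p. Of 22 other enzymes of nucleotide supply, 14 fell and 1 rose in Vhl and 17 fell and 1 rose in Vhl/Rassf1a, and Mthfd2, of mitochondrial folate metabolism, fell by 0.84 in Vhl and by 1.29 in Vhl/Rassf1a on the log2 scale. Samhd1 (-0.43), a dNTP hydrolase, Dut (-0.54), the dUTPase, and Ctps2 (-0.45), a CTP synthase, followed in Vhl. Of 26 G1/S cyclins, kinases and RB/E2F genes, 14 fell and 0 rose in Vhl, where 17 were at an unadjusted p under 0.05 in either direction and DESeq2 called 1 higher, and 11 fell and 2 rose in Vhl/Rassf1a. Ccna2, cyclin A2, had a log2 fold change of -0.83 in Vhl, Ccnd1 and Ccnd2, cyclins D1 and D2, of -0.57 and -0.38, and Cdkn2c, an inhibitor of Cdk4 and Cdk6, of -1.05. Of 11 genes listed as chromatin assembly factors, 8 fell in each genotype, led in Vhl by Cdca7 (-0.94), Nasp (-0.51), Fbxo5 (-0.66) and Chaf1b (-0.66). Fbxo5 encodes Emi1, an inhibitor of the anaphase-promoting complex and no assembly factor, and Nasp and Chaf1b encode histone chaperones. Those that rose, named after their values were seen, were Pole3 and Impdh1 in both genotypes (0.25 and 0.42 in Vhl) and Rb1 and Cdkn1a in Vhl/Rassf1a (0.61 and 0.31).

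Replication genes were also lower in Vhl GFP than in WT GFP, where no library had Cre. In Vhl GFP against WT GFP, 36 of 47 replication genes were lower and 0 higher (37 at an unadjusted p under 0.05 in either direction, 0 higher by DESeq2), where 14.9% of all genes were lower and 17.2% higher. The median was -0.32, about the size of the Cre effect. Rrm2 led, with 123, 125 and 122 CPM in Vhl GFP, against 213, 198 and 216 CPM in WT GFP (log2 fold change -0.76, SE 0.05, edgeR adjusted p = 5.58e-11). Mcm6 had 82.0, 86.6 and 85.7 CPM in Vhl GFP, against 111, 109.8 and 107 CPM in WT GFP (log2 fold change -0.36, SE 0.04, edgeR adjusted p = 4.77e-07). Mcm10 had 13.1, 13.2 and 13.8 CPM in Vhl GFP, against 19.4, 20.3 and 18.4 CPM in WT GFP (log2 fold change -0.54, SE 0.07, edgeR adjusted p = 1.55e-06). None of these groups overlapped. Pold2, among the genes with the largest Cre effect, was not past the threshold here (log2 fold change -0.08, SE 0.11, edgeR adjusted p = 0.628), and neither were Gins2, Gins3, Gins4, Rfc2, Rfc3, Pola2, Prim1, Fen1, Rpa2 and E2f1. The 20 mitosis markers were lower too, 20 of 20, with a median of -0.50. Of 12 fibroblast markers, 8 were higher and 2 lower, with a sum of 60850 to 63440 CPM in Vhl GFP and 42370 to 46030 CPM in WT GFP. Of the 5 epithelial markers tested of 7, 2 were lower, with 37.8 to 38.9 CPM in Vhl GFP and 75.9 to 94.4 CPM in WT GFP. Of 5 endothelial markers 2 were lower (5.55 to 6.75 CPM in Vhl GFP, 11.7 to 12.8 CPM in WT GFP), and of 3 tubule markers tested of 8 1 was lower (187.1 to 228 CPM in Vhl GFP, 312.2 to 348.8 CPM in WT GFP). Of 5 macrophage markers tested of 6, 1 was higher, with 6.85 to 7.52 CPM in Vhl GFP and 6.85 to 8.00 CPM in WT GFP. Their part in the lower replication genes was not tested. What sets Vhl GFP apart from WT GFP (the altered allele, the embryos or the cultures) cannot be told apart.

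In Rassf1a GFP against WT GFP, 4 of 47 were lower and 0 higher (13 at an unadjusted p under 0.05 in either direction, 0 higher by DESeq2), where 6.68% of all genes were lower and 9.39% higher. These were Rrm2 (log2 fold change -0.49, SE 0.05, edgeR adjusted p = 1.67e-07), Orc6 (log2 fold change -0.19, SE 0.05, edgeR adjusted p = 0.0149), Prim2 (log2 fold change -0.17, SE 0.06, edgeR adjusted p = 0.0383) and Rpa1 (log2 fold change -0.14, SE 0.05, edgeR adjusted p = 0.0491). With all libraries, the share of replication genes was near that of all genes. For the other settings the share of all genes that were lower is not given, so the shares were not compared there. The count of lower replication genes was 11 with both libraries that stood apart left out, 12 with GC-corrected offsets and 1 with the compared groups only. It was 1, Rrm2, without WT GFP replicate 1, 7 without Rassf1a GFP replicate 1 or replicate 2, and 3 or 4 without any other library. Prim2 also lost its call without WT GFP replicate 2 or Rassf1a GFP replicate 1 or 3, and Rpa1 without WT GFP replicate 3 or Rassf1a GFP replicate 3. Rrm2 had 149.8, 157 and 140.5 CPM in Rassf1a GFP, against 213, 198 and 216 CPM in WT GFP. Orc6 had 26.3, 26.9 and 26.7 CPM in Rassf1a GFP and 32.0, 30.1 and 29.2 CPM in WT GFP, and Prim2 had 19.7, 21.8 and 20.5 CPM in Rassf1a GFP and 24.1, 23.7 and 22.1 CPM in WT GFP. None of these 3 pairs of groups overlapped. In Vhl/Rassf1a GFP against WT GFP, 2 were lower and 0 higher (7 at an unadjusted p under 0.05 in either direction, 0 higher by DESeq2), where 4.68% of all genes were lower and 6.86% higher. They were Rrm2, with 182, 166 and 176 CPM in Vhl/Rassf1a GFP (log2 fold change -0.26, SE 0.05, edgeR adjusted p = 0.000637), and Mcm8, with 6.97, 8.29 and 8.60 CPM in Vhl/Rassf1a GFP and 9.12, 9.25 and 10.1 CPM in WT GFP (log2 fold change -0.25, SE 0.08, edgeR adjusted p = 0.0497). Mcm8 lost its call without any 1 of 5 of the 6 libraries compared (adjusted p 0.0632 to 0.206), the exception being Vhl/Rassf1a GFP replicate 3 (0.0262). The count was 4 without both libraries that stood apart, 1 without WT GFP replicate 1 or replicate 2, 3 without WT GFP replicate 3 and 4 without Vhl/Rassf1a GFP replicate 3. Rrm2 was thus called lower than WT GFP in all 3 comparisons, which share the WT GFP libraries, but not in Vhl/Rassf1a GFP when only the groups compared were fitted (-0.27, edgeR adjusted p = 0.071).

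Markers of other cell types moved beside these genes. The shares of all genes were 18.7% lower and 17.4% higher in Vhl, and 14.8% lower and 14.9% higher in Vhl/Rassf1a. In Vhl Cre, 5 of the 5 epithelial markers tested of 7 rose, and the 7 together held 126.2 to 146.3 CPM per library, against 37.8 to 38.9 CPM in Vhl GFP. In Vhl/Rassf1a Cre, 3 of 5 rose, and the sum was 193.6 to 201 CPM, against 75.4 to 97.1 CPM in Vhl/Rassf1a GFP. Over all 24 libraries Epcam, Cdh1, Esrp1 and Cldn4 averaged under 1 CPM, and Krt8, Krt18 and Krt19 averaged 1.13, 8.02 and 80.1 CPM. The log2 fold changes in Vhl were 3.468 for Cdh1, 2.619 for Cldn4, 0.998 for Krt8, 1.855 for Krt18 and 1.854 for Krt19. In Vhl/Rassf1a, Cldn4 (1.157), Krt18 (0.846) and Krt19 (1.284) rose, and Cdh1 (0.781) and Krt8 (0.714) did not pass. Of 5 endothelial markers, 3 rose in Vhl, with a sum of 11.9 to 13.1 CPM in Vhl Cre and 5.55 to 6.75 CPM in Vhl GFP, and 2 in Vhl/Rassf1a, with 12.8 to 14.4 CPM in Vhl/Rassf1a Cre and 11.6 to 12.4 CPM in Vhl/Rassf1a GFP. Of 12 fibroblast markers, 6 fell and 0 rose in Vhl, with a sum of 50370 to 54300 CPM in Vhl Cre and 60850 to 63440 CPM in Vhl GFP. In Vhl/Rassf1a 1 of the 12 fell and 1 rose, and the sums overlapped, with 43160 to 46910 CPM in Vhl/Rassf1a Cre and 42010 to 52130 CPM in Vhl/Rassf1a GFP. Of the 3 tubule markers tested of 8, Lrp2 (1.85 in Vhl and 0.80 in Vhl/Rassf1a, log2 scale) and Cubn (0.47 and 0.32) rose and Aqp1 (-0.27 and -0.38) fell in both genotypes. The 8 together held 193.5 to 197.9 CPM in Vhl Cre, against 187.1 to 228 CPM in Vhl GFP, and 269.4 to 279.3 CPM in Vhl/Rassf1a Cre, against 331.7 to 355.3 CPM in Vhl/Rassf1a GFP. Of the 5 macrophage markers tested of 6, Ptprc rose (2.02) and Cd14 fell (-0.52) in Vhl, and Cd68 rose (0.54) in Vhl/Rassf1a. Their sum was 6.64 to 6.91 CPM in Vhl Cre and 6.85 to 7.52 CPM in Vhl GFP, and 7.61 to 8.53 CPM in Vhl/Rassf1a Cre and 5.16 to 6.70 CPM in Vhl/Rassf1a GFP. Ptprc, Adgre1 and Lyz2, and the endothelial markers Pecam1 and Cdh5, averaged under 1 CPM, and the erythroid genes Hba-a1 and Hbb-bt were at 0 in all 24. Whether these markers stand for other cells in the cultures was not tested, and neither was their part in the fall of the replication genes.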

How the data were processed

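The authors deposited raw counts per gene for 24 libraries. Per the submitters' processing notes, Trimmomatic 0.38 and STAR 2.5.2b were used with build GRCm38, while the tool that counted reads, the strand it used and its gene models were not given in the sources used here. Per the labels' protocols, the kits were NucleoSpin RNA for isolation and TruSeq Stranded RNA for the libraries. Gene names came from GENCODE M21 (45143 of 45706 IDs, 563 without a symbol). Genes were filtered with filterByExpr (at least 10 counts, total at least 15), which left 16573, and tested with edgeR 4.0.16 (quasi-likelihood test, TMM, 1 mean per group, 16 residual degrees of freedom, common biological coefficient of variation 7.73%) in R 4.3.3. P-values were adjusted by Benjamini-Hochberg over all genes tested in each of 12 comparisons, with a threshold of 0.05, and the fit was tested on simulated data. SE is the size of the log2 fold change over the root of its F statistic. CPM use TMM library sizes, and CPM per kb the union of GENCODE exons. No replicate pair agreed within sampling noise (lowest chi-square per degree of freedom 2.86). Promoter windows came from RefSeq (GRCm38.p6), and Gmnn, Mcm4, Gins1, Gins2, Gins4, Rfc2, Prim2 and Pole had no entry.

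The 47 genes, the other lists and the tests were chosen with earlier results of these data known. Values per library are given for 8 chosen genes (Mcm5, Mcm10, Cdc6, Cdt1, E2f1, Uhrf1, Pcna and Rrm2), for the genes of smallest and largest adjusted p in each role group in Vhl, and for the first 3 past the threshold in the differences of Cre effects, in Vhl/Rassf1a and in the GFP comparisons. Of the other lists, up to 4 genes by smallest adjusted p in Vhl are named. The alternatives were the Wald test and the size factors of DESeq2 1.42.0, no filter, a replicate block, GC-corrected offsets with and without that block, the compared groups only, both libraries that stood apart left out, and each library left out in turn.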

Additional observations from a re-analysis of the deposited data

Results flagged for a closer look

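The following results were listed because the Cre effect differed between genotypes by a test of the difference itself in edgeR. Against WT, the Cre effect in Vhl was below for 23 of the 47 replication genes and above for 1. The log2 differences were -0.64 for Mcm10, -0.33 for Mcm4 and -0.75 for Tk1, and 0.22 for Rrm2. The Cre effect in Vhl/Rassf1a was below that in WT for 23 genes, with log2 differences of -0.44 for Mcm6, -0.37 for Mcm4 and -0.62 for Mcm10. It was below that in Rassf1a for 20 genes, with -0.72 for Mcm10, -0.40 for Mcm4 and -0.41 for Mcm6. For the mitosis markers, the Cre effect in Vhl/Rassf1a was above that in Vhl for 20 of 20, where it was above for 570 of all 16573 genes. The groups hold 3 libraries each, so no single library was tested as standing apart by its range.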

How the results depend on the processing

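Under the alternatives, 8723 of 9118 values of single replication genes kept their direction and their side of the threshold, 228 no longer passed, 167 newly passed and 0 changed direction. Of the 34 genes called in Vhl, 28 were called under every alternative run, and of the 33 in Vhl/Rassf1a, 23. The number lower in Vhl was 32 to 33 under the other settings and 28 to 32 with 1 library left out, and in Vhl/Rassf1a 24 to 35 and 27 to 32. With the compared groups only, Mcm7, Mcm8, Pcna, Rfc3, Pola2, Prim1, Pole2, Rpa2 and Rrm1 lost their call in Vhl/Rassf1a (edgeR adjusted p 0.0604 to 0.185). For the difference from WT the number lower was 20 to 29 and 18 to 24 in Vhl, and 19 to 27 and 18 to 24 in Vhl/Rassf1a. For Vhl/Rassf1a against Rassf1a it was 18 to 28 and 18 to 26, and for Vhl GFP against WT GFP 33 to 38 and 30 to 33. Counts that moved by over 1.5 times were small ones, and the cause was not tested. In WT, 1 gene was lower with GC-corrected offsets. For Vhl minus WT, 0 were higher with no filter and 0 to 1 with 1 library left out. For Vhl/Rassf1a minus Vhl, 2 were higher and 1 lower without both libraries that stood apart, and 0 to 1 lower with 1 left out. In Rassf1a GFP against WT GFP, 12 were lower with GC-corrected offsets, with or without the replicate block, 11 without both libraries, 1 with the compared groups only and 1 to 7 with 1 library left out. In Vhl/Rassf1a GFP against WT GFP, 4 were lower with no filter, 4 without both libraries, 0 with the compared groups only and 1 to 4 with 1 library left out, and 1 was higher with GC-corrected offsets, with or without the block, and 0 to 1 with 1 left out. Same-numbered libraries correlated between -0.123 and 0.078 in their deviations, so the numbers gave no pairing. With the replicate block, 32 genes were lower in Vhl, 33 in Vhl/Rassf1a, 21 in each difference from WT, 20 against Rassf1a, 36 in Vhl GFP, 4 in Rassf1a GFP and 1 in Vhl/Rassf1a GFP. The E2F letters were in 13 genes in a window from 100 bases before the start and in 25 with 1 letter fewer, against 17.

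Counts over all genes moved by over 1.5 times in these cases. In Rassf1a, 65 genes were called, 103 by DESeq2, 151 with no filter, 196 with GC-corrected offsets, 185 with the block added, 114 without both libraries, 12 with the compared groups only and 26 to 67 with 1 library left out. In WT, 209 were called, 521 with GC-corrected offsets, 494 with the block added and 87 to 178 with 1 left out. In Vhl/Rassf1a, 4919 were called and 3037 with the compared groups only. With GC-corrected offsets and with the block added, the differences gave 3952 and 3889 against 2454 (Vhl/Rassf1a minus WT), 4047 and 3978 against 2493 (minus Rassf1a) and 2244 and 2165 against 1010 (minus Vhl). The last gave 1859 without both libraries and 637 with the compared groups only. Rassf1a minus WT gave 1, 22 with no filter, 2 without both libraries and 0 with the compared groups only. Rassf1a GFP gave 2664 and 1461 with the compared groups only, and Vhl/Rassf1a GFP 1913, 2998 and 2975 with the GC settings and 762 with the compared groups only. Fen1, at a mean of 45.5 counts, is the gene where depth limits most.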
